A study of Sus scrofa with 80 samples.

Results

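The smooth muscle contractile genes described here were ACTA2, TAGLN, CNN1 and ACTG2. Members were the probesets whose single gene symbol in the platform annotation was one of these 4 symbols, which gave 5 of the 23999 non-control probesets. ACTA2 (Ssc.941.1.S1_at), TAGLN (Ssc.11913.1.S1_at) and CNN1 (Ssc.9013.1.S1_at) had 1 probeset each. ACTG2 had 2, Ssc.10316.1.S1_at and Ssc.6145.1.A1_at, which are called ACTG2-S1 and ACTG2-A1 after the ends of their identifiers.

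Expression was measured on Affymetrix porcine arrays in 5 tissues of 16 young pigs, which gave 80 arrays. The tissues were hypothalamus, adenohypophysis, thyroid gland, backfat and gonad, and the gonads were kept apart as 9 testes and 7 ovaries, so that there were 6 tissue classes. Each of 4 breeds had 4 pigs: Large White, Duroc and Iberian with 2 males and 2 females each, and Youli, a cross with a SinoEuropean hybrid line, with 3 males and 1 female. Mean age at slaughter was 87 days in Large White, 83 in Duroc, 80 in Youli and 89 in Iberian pigs, and all were housed together on the same diets. Animals are named by breed, sex and number, so that IBF25 is an Iberian female. Values are log2 signals after GCRMA, a normalization that corrects the background by probe sequence and was run over the 80 arrays together. A log2 signal at or under 4 is called dim below.

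The contractile apparatus of smooth muscle slides actin along myosin, and calcium starts it through calmodulin and the myosin light chain kinase. ACTA2 is the alpha actin typical of vascular smooth muscle and pericytes, and ACTG2 is the gamma actin typical of the gut, bladder and genital tract. CNN1 (calponin) binds actin and slows the myosin ATPase, while TAGLN (SM22 alpha, transgelin) is an actin-binding protein of the same family that marks smooth muscle early. In mammals these genes share control by serum response factor and myocardin. Endocrine tissues hold smooth muscle mainly in vessel walls, whereas the testis adds the peritubular myoid cells and the ovary adds stromal and thecal cells.

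Array medians lay between 4.67 and 5.04 over all 80 arrays. The 11 thyroid arrays whose titles and characteristics fields name different breeds or sexes were taken by title: by title, EIF1AY, a Y-linked gene, was 9.67 to 10.16 in the 9 males and 2.68 to 3.03 in the 7 females, and by field the sexes overlapped. The ovary of IBF25 stood apart. It gave the highest signal of the 7 ovaries at 44.3% of all probesets and the lowest at 18.6%, and its correlation with the median of the other ovaries was 0.92. Against the markers of the labelled tissue, all 6 measured oocyte genes and 4 of 7 granulosa genes were below the other 6 ovaries in IBF25, where 18.6% of all probesets were. For example DPPA5, an oocyte gene, was 1.97 in it against 9.39 to 12.65, and FST, follistatin of granulosa cells, was 2.22 against 9.60 to 11.50. Results that rest on this array are given with and without it.

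All 5 probesets differed among the 6 tissue classes, where 94.5% of all probesets did so at an adjusted p under 0.05. Of the 75 comparisons of a member between tissue classes (5 probesets by 15 pairs), 66 passed, against 56.4% over all probesets. The order was alike for 4 of the 5 probesets at its ends. Ovary was highest and backfat next in ACTA2, TAGLN, CNN1 and ACTG2-S1, and adenohypophysis was lowest. The other ACTG2 probeset was highest in thyroid gland.

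ACTA2 in ovary was 12.66 at its lowest, 12.85 at the median and 13.27 at its highest. Backfat ranged from 10.76 to 12.81 with a median of 11.76, and testis from 10.18 to 11.91 with a median of 11.45. Thyroid gland ran from 8.65 to 11.60 (median 9.98), hypothalamus from 6.96 to 10.89 (median 8.42) and adenohypophysis from 5.74 to 10.56 (median 7.32). No ACTA2 value was dim in any of the 80 arrays. Every ovary lay above every testis, thyroid gland, hypothalamus and adenohypophysis, while ovary and backfat overlapped slightly.

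The ACTA2 means were 12.90 ± 0.20 (SD, n = 7) in ovary, 11.75 ± 0.69 (n = 16) in backfat, 11.25 ± 0.59 (n = 9) in testis, 9.86 ± 0.85 (n = 16) in thyroid gland, 8.63 ± 1.15 (n = 16) in hypothalamus and 7.31 ± 1.20 (n = 16) in adenohypophysis. Ovary exceeded adenohypophysis by 5.56 ± 0.40 (SE) on the log2 scale, which is 47.0-fold (adjusted p = 1.54e-20). Among neighbours in this order, backfat and testis differed by 0.47 ± 0.37 and did not pass (adjusted p = 0.262). The other 4 steps passed, with adjusted p from 0.000195 to 0.0123.

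TAGLN was again highest in ovary and lowest in adenohypophysis. Ovary ranged from 9.93 to 10.83 (median 10.55), backfat from 8.27 to 10.65 (median 9.61), testis from 6.63 to 8.85 (median 8.16) and thyroid gland from 7.28 to 9.01 (median 7.96). Hypothalamus ran from 3.88 to 7.75 (median 5.88) and adenohypophysis from 3.89 to 7.53 (median 5.35). Ovary was separate from testis and overlapped with backfat, and testis overlapped with thyroid gland.

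TAGLN was 34.7-fold higher in ovary than in adenohypophysis, a log2 difference of 5.12 ± 0.33 (SE; adjusted p = 2.82e-23). Its neighbours testis and thyroid gland differed by 0.06 ± 0.30 (adjusted p = 0.925). In the same animals, TAGLN was higher in backfat than in thyroid gland in 16 of 16 pigs, and higher in ovary than in backfat in 7 of 7 females.

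CNN1 was at 6.66 to 11.17 in ovary (median 8.41) and 4.73 to 9.52 in backfat (median 7.37). It was 3.80 to 6.82 in hypothalamus (median 5.16), 2.35 to 7.92 in thyroid gland (median 4.32), 2.98 to 5.10 in testis (median 4.19) and 2.39 to 5.94 in adenohypophysis (median 2.84). CNN1 was dim in 15 of 16 adenohypophyses, 7 of 16 thyroid glands, 4 of 9 testes and 1 of 16 hypothalami, and in no ovary or backfat. No testis reached the lowest ovary.

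Testis held different places in the orders of the members. Its ACTA2 stood near backfat, whereas its CNN1 stood 9.50-fold under backfat, a log2 difference of -3.25 ± 0.46 (SE; adjusted p = 5.24e-09), and below hypothalamus by 1.11 ± 0.46 (adjusted p = 0.0355). The last call was lost when any of 5 males was left out (DUM12, DUM15, IBM23, IBM24 or YLM18), with adjusted p from 0.0528 to 0.119. CNN1 in ovary and backfat differed by 0.88 ± 0.50 and did not pass (adjusted p = 0.119). Thyroid gland and testis differed by 0.31 ± 0.46 (adjusted p = 0.668).

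ACTG2-S1 had the largest difference between ovary and adenohypophysis among the 5 probesets. It was 8.03 to 12.10 in ovary (median 8.79), 4.57 to 10.22 in backfat (median 6.95), 4.11 to 6.41 in testis (median 5.28) and 2.65 to 8.12 in thyroid gland (median 3.96). It was 2.46 to 6.51 in hypothalamus (median 3.47) and 2.38 to 6.40 in adenohypophysis (median 2.66), and 14 and 15 of the 16 arrays of these classes were dim. Ovary lay above every testis and every array of the hypothalamus and adenohypophysis. The difference between ovary and adenohypophysis was 6.59 ± 0.59 on the log2 scale, 96.2-fold (adjusted p = 2.68e-16). Without IBF25 the folds were 75.4 for ACTG2-S1 and 29.0 for CNN1, against 38.5 with it. Since nearly all adenohypophyses were dim, the size of both folds rests on values near the bottom of the scale.

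The second ACTG2 probeset, ACTG2-A1, gave another order. It was highest in thyroid gland at 10.88 ± 0.34 (SD, n = 16), then 10.09 ± 0.47 (n = 16) in backfat, 9.44 ± 0.32 (n = 9) in testis, 8.92 ± 0.58 (n = 7) in ovary, 6.78 ± 0.36 (n = 16) in hypothalamus and 6.73 ± 0.41 (n = 16) in adenohypophysis. Thyroid gland exceeded adenohypophysis 17.8-fold (log2 difference 4.16 ± 0.14, SE; adjusted p = 3.78e-40) in 16 of 16 pigs, by at least 3.51 in each. Hypothalamus and adenohypophysis were not separated (difference 0.05 ± 0.14; adjusted p = 0.822). Its step from testis to ovary (0.55 ± 0.20, adjusted p = 0.0222) was lost without IBF25 (adjusted p = 0.106). No level of one probeset can be set against that of the other, but their orders differ, so a statement on ACTG2 depends on the probeset. From here on, ACTG2 with no suffix is ACTG2-S1, a choice made after the values were seen.

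**Figure D1:**
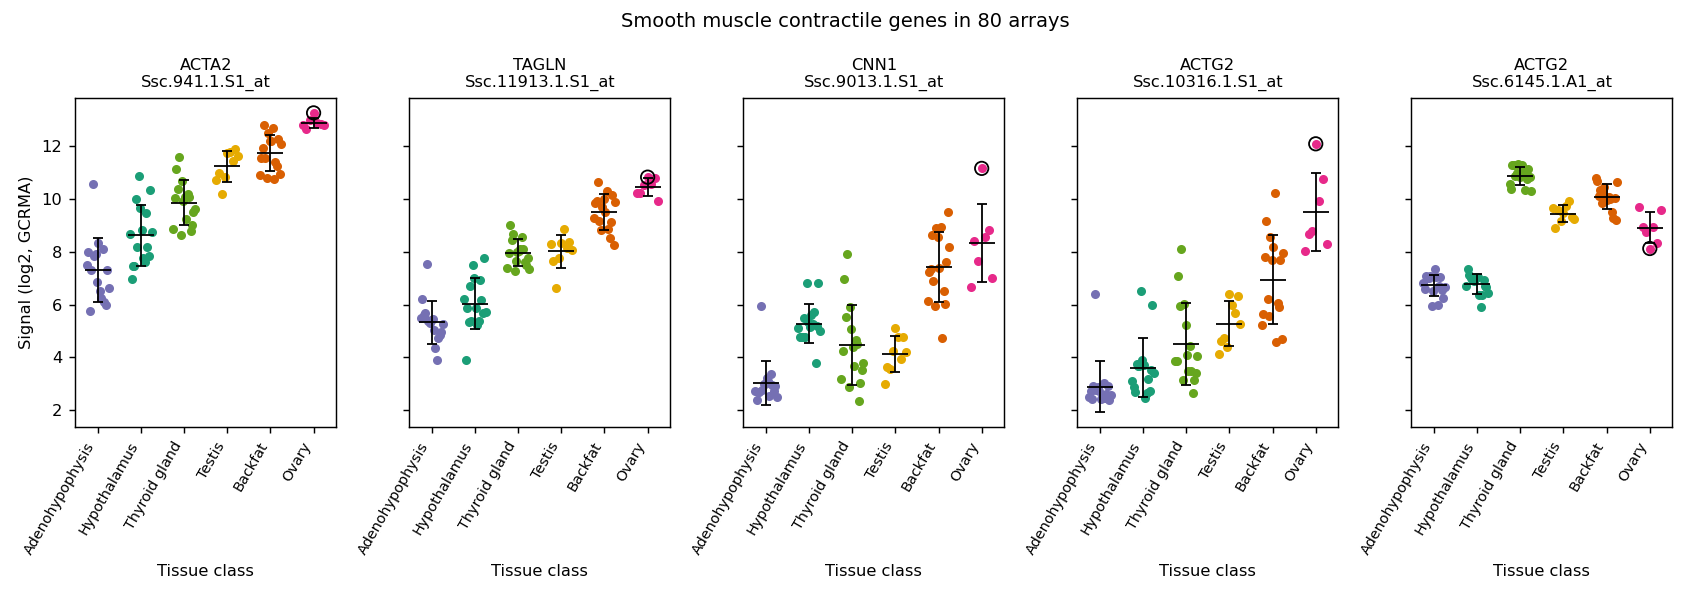
Log2 GCRMA signal (y axis) of the 5 member probesets in each tissue class (x axis), 1 point per array, with black bars for the mean and SD and a circle around the ovary of IBF25. Ovary is highest in the first 4 panels, with ACTA2 at 12.66 to 13.27, and thyroid gland is highest in the last.

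Ovary against testis was fitted separately on the 16 gonads. In testis 4 of the 5 probesets were lower, ACTA2 by 3.29-fold, TAGLN by 5.44-fold, CNN1 by 17.7-fold and ACTG2-S1 by 19.04-fold. The log2 differences, testis minus ovary, were -1.72 ± 0.20, -2.44 ± 0.25, -4.15 ± 0.52 and -4.25 ± 0.51 (SE), and the adjusted p were 6.60e-05, 1.81e-05, 9.35e-05 and 6.87e-05. The highest testis was below the lowest ovary for each of these 4 probesets. The share of all probesets without overlap between testis and ovary was not counted. Over all probesets, 13.2% passed as lower in testis and 15% as higher. ACTG2-A1 gave 0.47 ± 0.22 with the opposite sign and did not pass (adjusted p = 0.146).

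Without the ovary of IBF25 the same 4 probesets passed. The log2 differences became -1.60 ± 0.19, -2.31 ± 0.24, -3.67 ± 0.30 and -3.77 ± 0.27, and the adjusted p were 7.73e-05, 2.37e-05, 4.77e-06 and 1.81e-06. CNN1 was then 12.8-fold and ACTG2 13.6-fold higher in ovary. Here 14.6% of all probesets passed as lower in testis and 15.9% as higher. In whole tissue, fewer cells of a type and less RNA per cell cannot be told apart.

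The 7 ovaries themselves spread most in CNN1 (8.33 ± 1.49, SD, n = 7) and ACTG2-S1 (9.52 ± 1.49), which without IBF25 were 7.86 ± 0.89 and 9.09 ± 1.05 (n = 6). CNN1 was 11.17 in IBF25, 8.85 in LWF06, 8.58 in LWF05, 8.41 in DUF14, 7.66 in IBF22, 7.01 in YLF21 and 6.66 in DUF13. ACTG2-S1 was 12.10 in IBF25, 10.78 in LWF06, 9.94 in LWF05, 8.79 in IBF22, 8.68 in DUF14, 8.31 in YLF21 and 8.03 in DUF13. The same 3 ovaries, IBF25 and both Large White ones, were highest for both genes. ACTA2 spanned 12.66 to 12.998 in the 6 ovaries other than IBF25.

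OVGP1, the oviduct-specific glycoprotein, moved with these 3 ovaries. It was 14.02 in LWF06, 13.24 in LWF05 and 11.81 in IBF25, and 2.12 to 5.85 in the other 4. The summed signal of the 6 measured genes of reproductive tract epithelium was 14.07 in LWF06, 13.32 in LWF05 and 12.66 in IBF25 on the log2 scale, the 3 highest of the 7 ovaries, whose range began at 5.11. In both Large White ovaries OVGP1 alone made up most of this sum. In IBF25 5 of the 6 genes were above the other 6 ovaries (83.3%, against 44.3% of all probesets), and none was dim there. Oocyte, granulosa and theca genes were present in both Large White ovaries, where the summed oocyte signal was 12.37 in LWF06 and 12.66 in LWF05 against 5.97 in IBF25. The part of tract tissue in the CNN1 and ACTG2 values was not tested. Without these 3 ovaries the 4 probesets still passed against testis. Against backfat, however, ovary was then no longer called for ACTA2 (1.13, adjusted p = 0.0511), TAGLN (0.69, adjusted p = 0.146) or ACTG2 (1.49, adjusted p = 0.0649), where with all ovaries the differences were 1.12, 0.93 and 2.53 (adjusted p = 0.0123, 0.0102 and 0.000149).

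Other contractile genes were high in IBF25 too. Of the 16 measured genes of the contractile list, 14 were above all of the other 6 ovaries, a share of 87.5% where 44.3% of all probesets were. TPM2, beta tropomyosin of thin filaments, was 12.29 against 10.10 to 10.69. ITGA8, an integrin subunit of smooth muscle and mesenchyme, was 6.92 against 2.59 to 4.82. MYLK, the light chain kinase, was 5.88 against 2.10 to 4.13. SMTN (smoothelin) was 10.53 against 9.27 to 9.62 and FLNA (filamin A, an actin crosslinker) was 10.84 against 9.46 to 10.11. The 2 exceptions were CALD1 (caldesmon) at 11.81 and PPP1R12A (the myosin phosphatase targeting subunit) at 9.81, both within the range of the others.

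Lists of other cell types were compared in the same way. All 9 striated muscle genes were above the other ovaries, with a summed signal of 8.42 against 6.65 or less, but 7 of the 9 were dim in IBF25. Lists unrelated to muscle did the same, with 5 of 5 hypothalamus genes (all 5 dim) and 4 of 4 spermatid genes (3 dim) above. Epididymis genes were above in 3 of 4 (75%, against 44.3% of all probesets), with 3 of the 4 dim. Of 8 endothelial genes 5 were below the other 6 ovaries (62.5%, against 18.6% of all probesets) and 1 above. Of 5 mural genes 1 was below, a share of 20% that is near that of all probesets, and 1 above. RGS5, a pericyte gene, was 7.47 against 8.79 to 10.51, and the summed mural signal of IBF25 was the lowest of the 7, at 10.58. Of the 8 regulators of smooth muscle transcription 2 were above (25%, against 44.3% of all probesets) and 2 below. JAG1, a Notch ligand, was 11.06 against 9.49 to 10.77 and CSRP2, a LIM protein, was 10.37 against 8.09 to 9.33. GATA6 was 8.67 against 9.16 to 9.83 and KLF4 was 6.13 against 6.48 to 7.02. MYOCD, at 4.002, lay within the range of the other ovaries (2.57 to 4.90).

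Probesets of 1 gene did not always give the same picture. DES (desmin, the intermediate filament of muscle) was represented by its brighter probeset, which was highest in hypothalamus at 11.35 on average and 3.997 in IBF25 against 3.51 to 3.97. Its other probeset was 9.16 in IBF25 against 4.42 to 6.85. KCNMB1, the beta subunit of the smooth muscle BK channel, was 4.33 in IBF25 by the probeset that stood for it, where the other ovaries gave 2.87 to 3.09, and 9.11 by another, where they gave 2.09 to 4.15, so both were above. A second ACTN1 probeset was within the range of the others (8.50 against 7.96 to 8.81), and another PPP1R12A probeset was just above it (8.737 against 7.67 to 8.721).

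**Figure D2:**
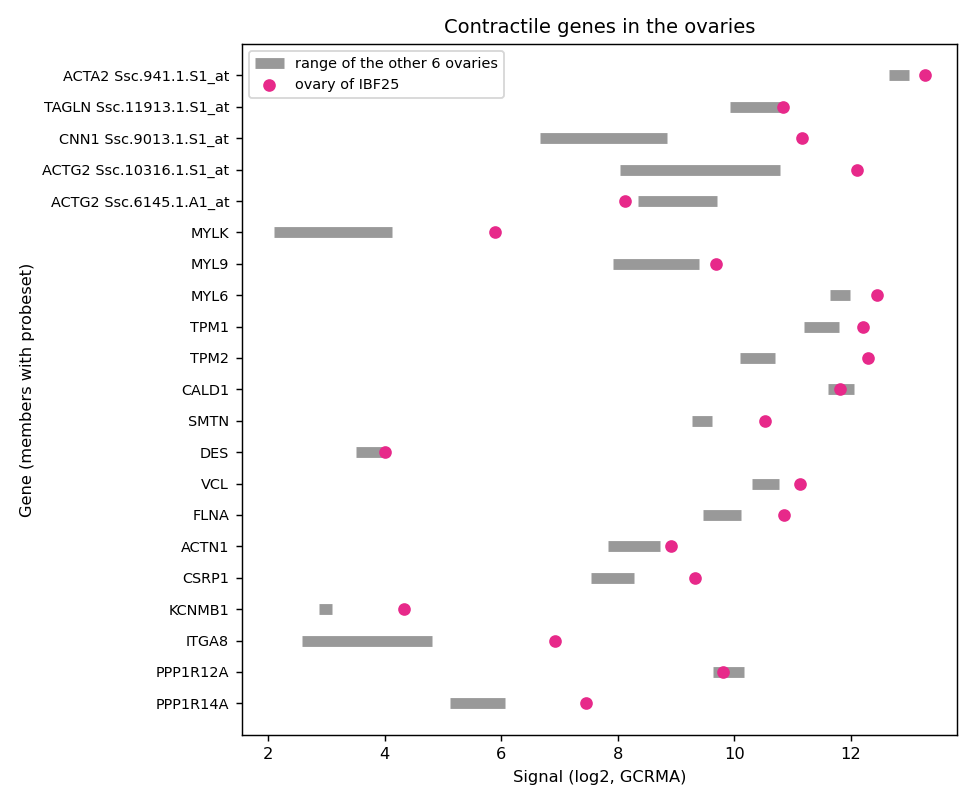
Log2 GCRMA signal (x axis) of the member probesets and the 16 measured genes of the contractile list (y axis) in the ovary of IBF25 (points) and the range of the other 6 ovaries (grey bars). IBF25 lies above the bar for 14 of the 16 list genes, and below it for ACTG2-A1 (8.13 against 8.35 to 9.70).

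The contractile list was then set against the tissues, in the same fits. Testis against ovary gave 9 of 16 genes lower in testis, 1 higher and 6 not called, where 13.2% of all probesets were lower and 15% higher. The median log2 difference was -0.66 where the median of all probesets was 0.02. FLNA (-2.25 ± 0.19, SE; adjusted p = 4.66e-06), CALD1 (-2.07 ± 0.13, adjusted p = 4.92e-07), TPM2 (-2.05 ± 0.24, adjusted p = 6.47e-05) and CSRP1, a LIM protein of smooth muscle (-1.78 ± 0.20, adjusted p = 3.67e-05) were among the lower ones. MYL9, the regulatory light chain of smooth muscle myosin, was 8.26 in testis and 8.84 in ovary and did not pass (-0.49 ± 0.28, adjusted p = 0.239). VCL (vinculin) gave 0.19 ± 0.12 (adjusted p = 0.283). DES was the gene called higher in testis, by the probeset that was brightest in hypothalamus. Without IBF25 the counts were again 9 lower, 1 higher and 6 not called, with a median of -0.56. Then 14.6% of all probesets were lower and 15.9% higher.

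Of 8 regulators of smooth muscle transcription, 5 were lower in testis, 1 higher and 2 not called (median -0.78). Over all probesets 13.2% were lower and 15% higher (median 0.02). MYOCD (myocardin), the coactivator of serum response factor, was dim on average in every class, at 3.43 in ovary and 2.13 to 2.35 elsewhere, and was lower in testis by 1.20 ± 0.31 (adjusted p = 0.0120). GATA6, a zinc finger factor of gonad and vessel wall, was 9.48 in ovary and 8.32 in testis against 2.37 to 4.04 elsewhere. KLF4, which in mouse smooth muscle opposes the contractile genes, was the one higher in testis (1.48 ± 0.26, adjusted p = 0.000922) and was highest in backfat at 10.42.

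Against adenohypophysis, 13 of 16 contractile list genes were higher in ovary, 1 lower and 2 not called, with 24.4% of all probesets higher and 25.1% lower. The median difference was 1.60 on the log2 scale, and -0.03 over all probesets. MYL9 (5.01, adjusted p = 2.38e-25), TPM2 (4.33, adjusted p = 2.97e-17) and FLNA (3.55, adjusted p = 6.01e-29) had the largest. Without IBF25 12 were higher and 2 lower, against 5719 and 6281 of all 23999 probesets. In backfat 10 of 16 were higher than in adenohypophysis, 1 lower and 5 not called (median 1.11), with 40.6% of all probesets higher and 29.3% lower.

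Markers of vessel and connective tissue cells also differed between these tissues. Ovary exceeded adenohypophysis in 4 of 5 mural, 6 of 8 endothelial and 4 of 5 fibroblast genes, where 24.4% of all probesets did so. Backfat did so in 5 of 5, 8 of 8 and 4 of 5, where 40.6% of all probesets did. The summed endothelial signal was 8.38 to 9.80 in adenohypophysis, 9.12 to 10.64 in ovary and 11.24 to 13.14 in backfat. The summed mural signal was 8.65 to 10.13, 10.58 to 11.71 and 11.09 to 12.06 in the same order. Their part in the member differences was not tested.

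The nonmuscle and striated relatives of the members were set against the same tissues. Of 7 relatives, 5 were higher in ovary than in adenohypophysis, 1 lower and 1 not called. Over all probesets 24.4% were higher and 25.1% lower. In backfat 2 relatives were higher than in adenohypophysis and 3 lower, where 40.6% of all probesets were higher and 29.3% lower. ACTB and ACTG1, the nonmuscle actins of every cell, averaged 13.29 to 14.03 and 13.31 to 14.18 over the 6 classes. ACTC1, the cardiac alpha actin, averaged 8.89 in thyroid gland and 2.35 to 3.45 elsewhere. CNN2, a calponin of non-muscle cells, was 6.52 in ovary and 5.64 in thyroid gland, higher in ovary than in adenohypophysis by 3.54 ± 0.17 (SE; adjusted p = 2.21e-30) and lower in testis than in ovary by 2.55 ± 0.24 (adjusted p = 1.18e-05). TAGLN2, a transgelin of many cell types, was higher in ovary than in adenohypophysis by 2.65 ± 0.29 (adjusted p = 9.02e-13), and was 9.34 in testis and 8.94 in ovary. CNN3 averaged 10.31 to 11.72 over the classes. TAGLN3, the neuronal transgelin, was 10.86 in hypothalamus and 8.79 in adenohypophysis against 2.71 to 4.06 elsewhere. In testis, 3 of the 7 were lower than in ovary, none higher and 4 not called, with 13.2% of all probesets lower and 15% higher.

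Over the 80 arrays the members correlated with each other, as a description of tissue order, with Pearson r from 0.75 (TAGLN and CNN1) to 0.94 (ACTA2 and TAGLN) among ACTA2, TAGLN, CNN1 and ACTG2-S1. After the mean of each tissue class was subtracted, r was 0.82 for CNN1 and ACTG2, 0.77 for ACTA2 and TAGLN, 0.73 for ACTA2 and ACTG2, 0.67 for ACTA2 and CNN1, 0.65 for TAGLN and ACTG2 and 0.52 for TAGLN and CNN1. These arrays share animals and tissues, and no p was computed. CNN1 and ACTG2 had r of 0.97 among thyroid glands. Among adenohypophyses r was 0.89 with IBF22 and -0.46 without it, where all the other 15 arrays were dim for both genes. Among backfats r was 0.62, and 0.91 without YLM19, both leave-outs being chosen after the values were seen.

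ACTG2-A1 did not follow this pattern. Its class-subtracted r was 0.08 with the other ACTG2 probeset, 0.10 with ACTA2, 0.18 with TAGLN and -0.06 with CNN1. Among the 7 ovaries its r was -0.89 with the other ACTG2 probeset, and -0.84 without IBF25. It was 8.13 in IBF25, the lowest ovary, where the other probeset was highest.

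**Figure D3:**
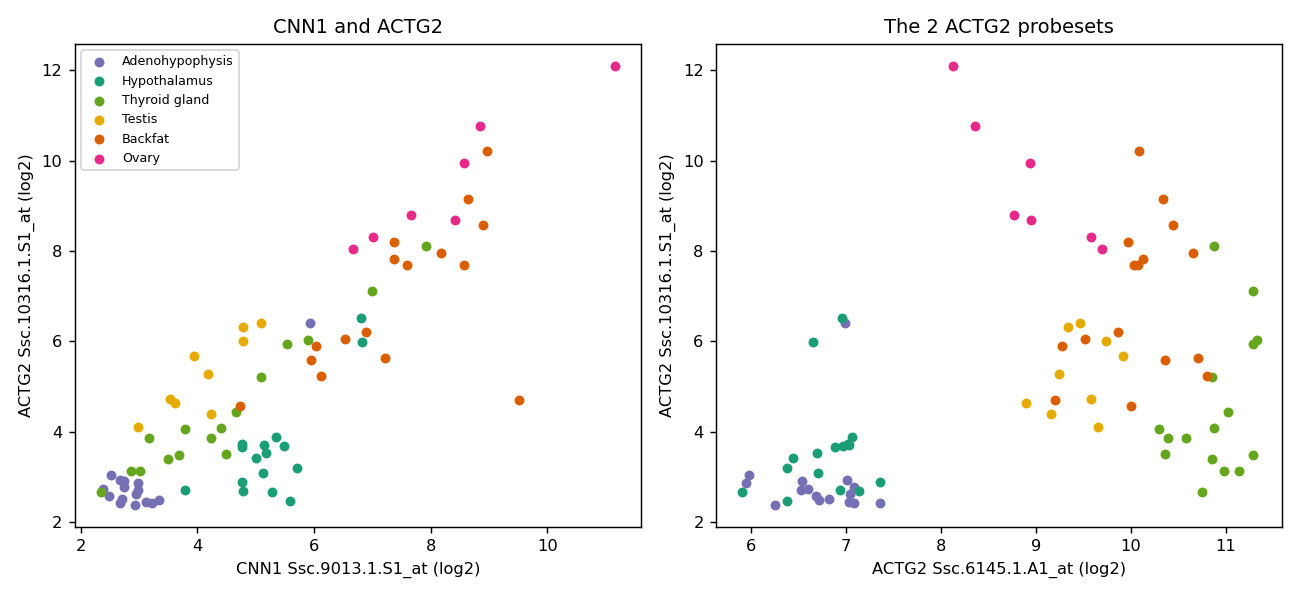
Log2 GCRMA signal of ACTG2-S1 (y axes) against CNN1 (left x axis) and against the second ACTG2 probeset (right x axis) in 80 arrays coloured by tissue class. CNN1 and ACTG2 mostly rise together (r 0.87 over 80 arrays), but 1 backfat has CNN1 at 9.52 and ACTG2 at 4.70. Hypothalamus is also above testis in mean CNN1 (5.27 and 4.13) and below it in mean ACTG2 (3.61 and 5.28). The 2 ACTG2 probesets have a class-subtracted r of 0.08 and run in opposite directions among the ovaries (r -0.89).

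The genes of most like pattern were ranked by r with the mean of the 4 genes, ACTG2-A1 standing for ACTG2 as the brighter probeset, among 10065 other probesets with 1 symbol. Over 80 arrays these were TPM2 (r = 0.91), MYL9 (0.91), AEBP1 (0.90), a second TPM2 probeset (0.89), ACTG2-S1 (0.89), ADAMTS1, CAV1, SMTN, FLNA and COL6A3 (0.88 each). With the tissue means subtracted, ACTG2-S1 led (0.84), followed by TPM2 (0.61), MSRB3 (0.57), FLNA (0.55), the second TPM2 probeset (0.54), MYL9 (0.52), LOC100153598 (0.51), POSTN (0.50), CAV1 (0.49) and CENPH (0.49). Using ACTG2-S1 in place of it, a choice made after the values were seen, TPM2 led both rankings (0.89 and 0.60), and KCNMB1 (0.54) and CFB (0.54) entered the second. AEBP1, POSTN and COL6A3 encode matrix proteins or proteins that act in the matrix, and CAV1 is the main protein of caveolae.

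Within 9 testes the highest were SMARCD3 (0.95), NEO1 (0.94), MSRB3 (0.94), TCEAL4 (0.94), KMT2E (0.93), SHTN1 (0.92), SSBP4 (0.91), RUNDC3B (0.91), GOLGA1 (0.90) and ZNF3 (0.90). Within the 6 ovaries other than IBF25 they were KTN1 (0.99), MPZL3 (0.99), SMTNL2 (0.99), BMP7 (0.99), FKBP4 (0.98), LRIG1 (0.97), CDH1 (0.97), KRT19 (0.97), LRRC43 (0.97) and LOC100156293 (0.97). KRT19 and CDH1 are epithelial genes. With ACTG2-S1 in the mean, none of the ovary probesets named stayed among the 10 highest, and the other DES probeset (0.99) was second among the 6 ovaries. With 10065 probesets ranked on 9 or 6 arrays, r this high can arise by chance, and no p was computed.

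Some single arrays stood apart in the non-gonadal tissues. In adenohypophysis, IBF22 gave 10.56 for ACTA2, 7.53 for TAGLN, 5.94 for CNN1 and 6.40 for ACTG2-S1. The other 15 adenohypophyses lay at 5.74 to 8.35, 3.89 to 6.23, 2.39 to 3.35 and 2.38 to 3.04. IBF22 was above all of them at these 4 probesets. Without it the CNN1 mean was 2.83 ± 0.27 (SD, n = 15) in place of 3.03 ± 0.82, and the ACTG2 mean 2.65 ± 0.21 in place of 2.89 ± 0.96.

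In this array 6 of 16 contractile list genes (37.5%) and 3 of 8 endothelial genes (37.5%) were also above the other 15, against 15.2% of all probesets, and 1 endothelial gene was below. Above the other 15 were also 4 of 9 striated muscle genes (8 of the 9 dim in IBF22), 2 of 4 spermatid genes, 2 of 6 oocyte genes and 2 of 7 granulosa genes, but none of the 8 regulators, 5 mural genes or 5 fibroblast genes. Its summed contractile and endothelial signals were the highest of the 16 adenohypophyses, at 12.91 and 9.80, while its mural sum (9.17) ranked 12th and its hormone sum (16.89) also 12th. The part of vessel content in its values was not tested.

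Thyroid gland had the same animal at the top. IBF22 was at 11.60 for ACTA2, 7.92 for CNN1 and 8.12 for ACTG2, and DUM12 followed with 11.15, 6.99 and 7.10. TAGLN was highest in DUM12 (9.01), with 8.67 in IBF22. The lowest CNN1 and ACTG2 were those of the Youli female YLF21, at 2.35 and 2.65. DUM12 also had the highest summed endothelial (11.81), fibroblast (13.39) and adipose (13.61) signals of the 16 thyroid glands, whereas IBF22 ranked 6th, 4th and 7th for these and had the lowest mural sum (11.41). In the contractile list sum IBF22 ranked 1st (13.77) and DUM12 5th, and in the sum of the regulators 2nd and 3rd. The striated muscle sum was highest in DUM12 (6.84), with IBF22 2nd (6.33), but 8 of its 9 genes were dim in each.

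In hypothalamus IBM23 and YLM19 were the 2 highest for ACTA2, TAGLN, CNN1 and ACTG2-S1. ACTA2 was at 10.89 and 10.33, CNN1 at 6.80 and 6.82, and ACTG2-S1 at 6.51 and 5.99. The other 14 lay at or under 10.01, 5.72 and 3.88. In the contractile list sum YLM19 ranked 4th and IBM23 11th of 16, and in the sum of the regulators of smooth muscle transcription 12th and 1st. The contractile sum (12.88 to 13.98) holds the DES probeset that was brightest in hypothalamus, at 10.22 to 13.11 there. Its part in these ranks was not tested. YLM19 was second of 16 in both the mural and the endothelial sum, and IBM23 was 12th and 7th. The summed fibroblast signal was 9.21 in IBM23 and 9.12 in YLM19, 3rd and 4th of 16. The median was 8.29, and IBM24 was highest at 9.38. The part of this signal in the values of IBM23 and YLM19 was not tested. YLM19 also had the highest summed signal of adenohypophysis hormone genes among the hypothalami, 12.16.

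Backfat spread more evenly, with ACTG2 from 4.57 in LWM02 to 10.22 in LWF06 and CNN1 from 4.73 in LWM02 to 9.52 in YLM19. YLM19 was the array that parted the 2 genes, with the highest CNN1 of 16 and ACTG2 at 4.70, the second lowest. Its TAGLN (8.27) was the lowest. Its summed striated muscle signal was 17.66, the highest of all backfats, with CKM, the muscle creatine kinase, at 14.57 and MYLPF, a fast light chain, at 14.80. DUF14 and DUM12 backfats carried CKM at 10.92 and 11.04, and their CNN1 was 7.22 and 7.37, near the median. Leaving these 3 backfats out, a choice made after the values were seen, did not alter any of the 66 tissue calls.

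**Figure D4:**
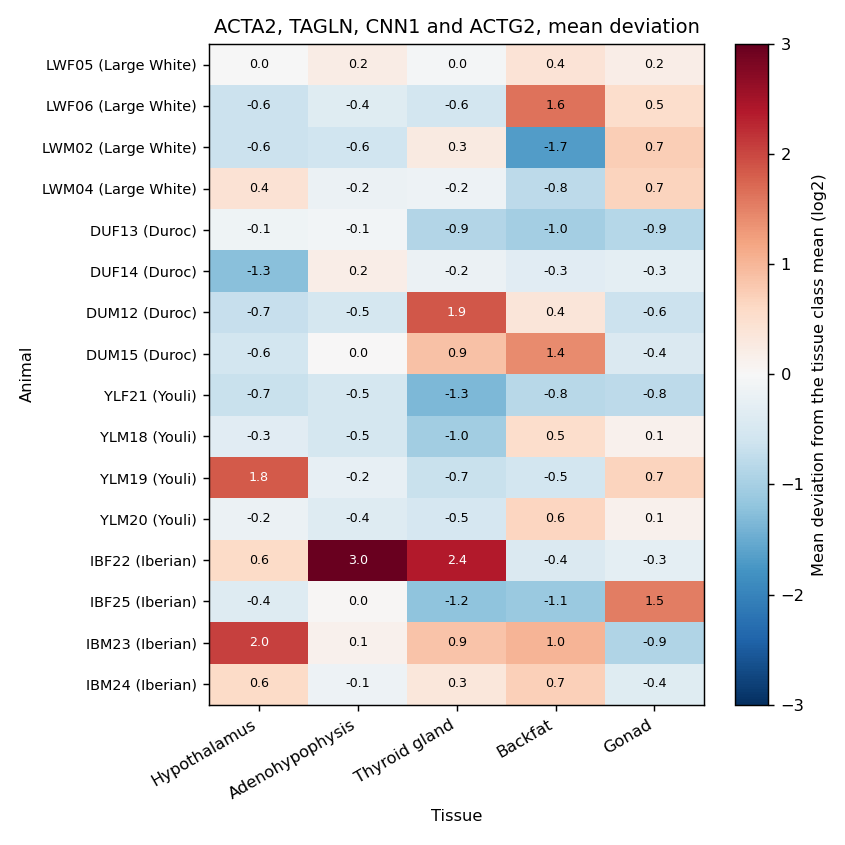
Mean deviation of ACTA2, TAGLN, CNN1 and ACTG2-S1 from the mean of the tissue class, on the log2 scale (colour and printed value), for each animal (y axis, with breed) and tissue (x axis, gonads against their own sex). IBF22 stands out in adenohypophysis and thyroid gland, and IBM23 and YLM19 in hypothalamus.

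Whether an animal deviated alike in its tissues was asked from the mean deviation of the 4 genes, with ACTG2-S1 for ACTG2, over 16 pigs and the 6 pairs of non-gonadal tissues. Adenohypophysis and thyroid gland gave Pearson r = 0.58 (permutation p = 0.0263, 0.158 adjusted over 6 pairs) and Spearman rho = 0.31 (p = 0.246, adjusted 0.492). Without IBF22 and LWM02, the 2 pigs farthest from the median in adenohypophysis, r was 0.15, so the relation rested on these pigs. The other pairs were treated alike, by distance in their first tissue only, in the order hypothalamus, adenohypophysis, thyroid gland, backfat. Then r was 0.46 for hypothalamus and adenohypophysis, 0.42 for thyroid gland and backfat, and -0.04 to 0.26 for the other 3 pairs. In the hypothalamus pairs YLM19 and IBM23 were left out, so IBF22 stayed in. The other 5 pairs had r from -0.06 to 0.24 and adjusted p of 0.762 or more, and rho from 0.16 to 0.41 with adjusted p from 0.492 to 0.563. All tests were two-sided with 100000 permutations.

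Sex was compared within each non-gonadal tissue, males minus females. None of the 20 comparisons passed in limma, and 1 had an unadjusted p under 0.05. That one was ACTG2-A1 in adenohypophysis, lower in males by 0.46 ± 0.18 (unadjusted p = 0.0282, adjusted p = 0.551). The largest estimates were those of CNN1 in thyroid gland, 1.07 ± 0.64 (adjusted p = 0.964), with 3.01 to 6.99 in males and 2.35 to 7.92 in females, and of ACTG2 there, 0.93 ± 0.64 (adjusted p = 0.964). Over all probesets 0.0667% passed in hypothalamus, 0.5% in adenohypophysis, 0.0792% in thyroid gland and 0.05% in backfat.

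Breed was compared within each tissue and none of the 30 member tests passed, while 7 had an unadjusted p under 0.05. Over all probesets 0.171% passed in hypothalamus, 0.3% in adenohypophysis, 0.575% in thyroid gland, 0.817% in backfat, 0% in testis and 0.00417% in ovary. Over the mean of the 4 non-gonadal tissues of each pig 1.18% passed, and none of the 5 members did (lowest adjusted p = 0.249, for ACTG2-A1; 1 unadjusted p under 0.05). The lowest adjusted p of a member were in testis, 0.172 for ACTA2 and 0.176 for ACTG2-S1.

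The testes are given by breed because 3 of these 7 lay there. ACTA2 was 11.76 and 11.77 in Large White, 11.45, 11.91 and 11.64 in Youli, 10.73 and 10.998 in Duroc and 10.18 and 10.86 in Iberian testes. ACTG2-S1 was 6.41 and 5.997 in Large White, 5.67, 6.32 and 5.28 in Youli, 4.11 and 4.64 in Duroc and 4.73 and 4.39 in Iberian testes. For both probesets every Large White and Youli testis was above every Duroc and Iberian testis. This grouping of the breeds was read from these values. The share of all probesets that part the testes in this way was not counted. In the breed test the unadjusted p were 0.00469 and 0.00503, and no probeset of the 23999 passed the adjustment in testis.

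CNN1 was 5.10 and 4.78 in Large White, 3.95, 4.78 and 4.19 in Youli, 2.98 and 3.62 in Duroc and 3.54 and 4.24 in Iberian testes, so that the breeds overlapped (adjusted p = 0.271). TAGLN overlapped as well, with 8.34 and 8.85 in Large White, 8.16, 8.38 and 8.07 in Youli, 8.30 and 7.65 in Duroc and 6.63 and 7.78 in Iberian testes (adjusted p = 0.393). The sperm gene SPA17 moved with these breeds, at 5.16 to 10.85 in the Large White and Youli testes and 3.20 to 4.19 in the Duroc and Iberian ones. PRM1, protamine of late spermatids, was 9.24 in LWM02, 12.03 in YLM19 and 11.93 in YLM20, and 2.33 to 2.49 in the other 6 testes. LWM04, with PRM1 at 2.43, had ACTA2 at 11.77. The summed Sertoli signal was 13.71 to 13.92 in the Large White and Youli testes and 13.15 to 13.64 in the Duroc and Iberian ones, which also did not overlap. The sum of the contractile list (13.01 to 13.38 against 13.23 to 13.38) did not part these breeds. Nor did the mural sum (10.19 to 11.36 against 11.02 to 11.19). The sum of the regulators of smooth muscle transcription was mostly lower in Large White and Youli testes (10.50 to 10.82 against 10.81 to 11.23). Sums of 3 cell type lists were also mostly lower in Large White and Youli testes, with overlap. These were fibroblasts (12.21 to 13.27 against 13.25 to 13.77), granulosa genes (8.64 to 10.28 against 10.22 to 11.09) and Leydig and theca genes (14.32 to 15.21 against 15.04 to 15.89). The part of testis maturation or cell makeup in the member values was not tested.

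**Figure D5:**
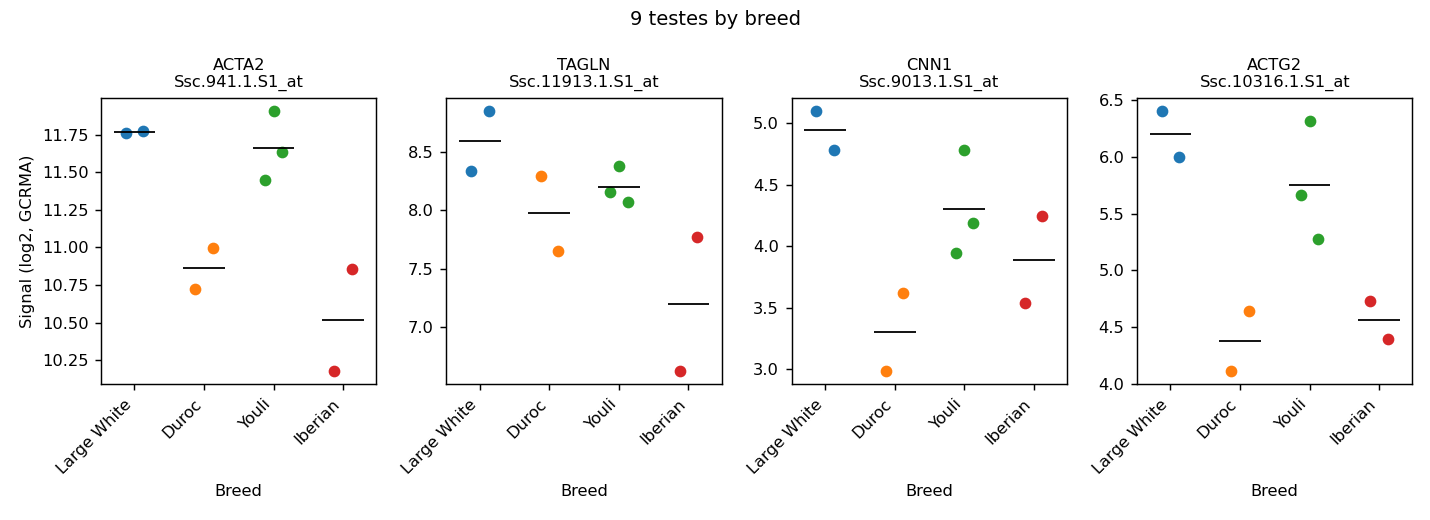
Log2 GCRMA signal (y axes, which differ in range and do not start at 0) of ACTA2, TAGLN, CNN1 and ACTG2-S1 in the 9 testes by breed (x axis), 1 point per testis with a line at the breed mean. For ACTA2 and ACTG2-S1 the Large White and Youli points lie above all Duroc and Iberian points, a grouping read from these values.

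In hypothalamus, ACTA2 averaged 9.68 ± 1.13 (SD, n = 4) in Iberian and 7.64 ± 0.72 (n = 4) in Duroc pigs, and the breed test did not pass (adjusted p = 0.460). In backfat the breed test gave an adjusted p of 0.976 for ACTA2 and 0.950 for ACTG2-S1. Among ovaries, TAGLN had the lowest adjusted p, 0.637 with IBF25 and 0.307 without it, with Youli represented by a single female. At 2 to 4 pigs a breed, these tests do not show that breeds have the same level.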

How the data were processed

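The deposited values were log2 signals that the authors had made with GCRMA over the CEL files of all 80 GeneChip Porcine arrays together, after scanning with GCOS. No genome build was needed. Of 24123 probesets, 124 controls were left out. Of the 23999 others, 10069 had 1 gene symbol, 198 several and 13732 none, and none was named from several. The members matched their RefSeq symbols by Entrez identifier. Groups came from the sample titles.

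Tests were fitted on all probesets with limma 3.58.1 in R 4.3.3 (lmFit, eBayes, two-sided), adjusted by Benjamini-Hochberg over all of them and called at 0.05. Tissue classes were fitted with breed as covariate, gonads with breed, and breed with sex. A gene of a list was represented by its probeset of highest mean, and summed signals are log2 of the summed linear signals. The genes named were the members, those of the lists, and the 10 of most like pattern. The script was tested on simulated data. The members and lists were chosen with earlier results of these data known.

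The labels tie the 5 arrays of a pig together by its number. An animal's residuals in 2 tissues correlated by 0.10 to 0.24 on average, and the fit with the animal as replicate block used a correlation of 0.07. The number of arrays limits the precision. Alternatives were quantile normalization, a filter on dim probesets, another variance prior, no covariate, the replicate block, the other thyroid labels, and leaving out each animal or the ovary of IBF25.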

Additional observations from a re-analysis of the deposited data

Results flagged for a closer look

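Among 90 sets of values, each a member in the 4 pigs of a breed and tissue or in all testes or ovaries, 9 held an array far from the rest by Dixon's criterion. Chance alone marks about 1 set in 20.

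In Iberian adenohypophyses IBF22 was at 7.53 for TAGLN, 5.94 for CNN1 and 6.40 for ACTG2-S1, where the other 3 lay at 5.32 to 5.41, 2.74 to 2.99 and 2.71 to 2.86. In Iberian hypothalami IBM23 was at 6.51 for the same ACTG2 probeset against 3.66 to 3.88.

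The other 5 were smaller gaps. In adenohypophysis, CNN1 was 2.39 in DUF14 against 2.68 to 2.72 in the other Duroc pigs, and ACTG2-S1 was 3.04 in LWM02 against 2.43 to 2.48 in the other Large White pigs, all of them dim. CNN1 was 5.12 in the hypothalamus of DUF13 against 4.77 to 4.79. In Large White thyroid glands, ACTA2 was 9.26 in LWF06 against 10.09 to 10.19 and TAGLN was 8.56 in LWM02 against 8.04 to 8.12.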

How the results depend on the processing

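All 66 tissue calls remained under quantile normalization, the dim filter, the other prior, no covariate, the field labels of the thyroid glands and the animal as replicate block (66 calls with the block). Without IBF25 65 calls remained, and leaving out each animal gave 63 to 67. Testis against ovary kept its 4 calls throughout, and the tests of sex and breed stayed at 0 calls. No called difference changed sign. Leaving out each animal gave -0.03287 (without LWM04) to 0.2342 for TAGLN in testis minus thyroid gland, and -0.1006 to 0.01066 (without IBM23) for ACTG2-A1 in adenohypophysis minus hypothalamus, none of them called. CNN1 in testis over adenohypophysis (1.14, adjusted p = 0.0329) was lost without any of 5 males, LWM02, LWM04, YLM18, YLM19 or YLM20 (adjusted p from 0.0531 to 0.0773). CNN1 in thyroid gland minus hypothalamus (-0.80, adjusted p = 0.0773) was called without IBF22 (-1.01, adjusted p = 0.0160) or DUM12 (-0.998, adjusted p = 0.0267). TAGLN in adenohypophysis minus hypothalamus (-0.72) was lost without LWM04 (-0.56, adjusted p = 0.0587), ACTG2-A1 in ovary minus testis (-0.55) without LWF06 or YLM18 (-0.48 and -0.49), and ACTG2-S1 in thyroid gland minus hypothalamus (0.88) was called without YLM19 (1.12, adjusted p = 0.0320). Without the 3 ovaries of high OVGP1, a choice made after the values were seen, 62 calls remained. No paired analysis was possible for testis against ovary because they come from different pigs. The field labels could not be tried on the means over tissues, since the fields name no animal, and the breed test in ovary could not be fitted without the single Youli female.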
